A study of Mus musculus with 14 samples.

Results

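Integrin and laminin subunits were described across 7 groups of mouse cells, 2 Illumina beadchip arrays each. The list held 35 genes, chosen by name: all integrin alpha and beta subunits and laminin chains on it were looked up through their gene IDs in the platform's probe annotation. Probes for 30 of them, 22 integrins and 8 laminins, were in the tables used, out of 16593 named genes in the whole series. A gene was kept for testing where a probe had a detection p-value under 0.05, meaning a signal above the array's negative controls, on both arrays of at least 1 group. That left 22 genes, 15 integrins and 7 laminins, of 10481 tested in all. A gene that passed through 1 group in which it was high had to differ from the others, so counts over the 22 describe those genes and not the 35. Itga8, Itga10, Itgal, Lama3 and Lama5 were not analysed here.

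The groups, all of strain C57/B6, were as follows. Mouse embryonic fibroblasts (MEFs) carried no reporter named in the labels. Epiblast stem cells (EpiSCs), the primed pluripotent cells of the post-implantation embryo, had been derived from epiblasts of embryonic day 6.5 (the label of the second array reads 6.6). Epiblast-like cells (EpiLCs), labelled GFP-negative and RFP-positive, carried the same pair of reporters as 3 embryonic stem cell (ESC) groups, whose ESCs came from double-reporter blastocysts. In these cells GFP reports the distal enhancer of Oct4 and a tdTomato gene, called RFP, sits in a 6 kb Oct4 fragment without that enhancer, so that it reports the proximal enhancer. The 2i ESCs, GFP-positive and RFP-negative, had grown in serum-free N2B27 medium with the cytokine LIF, 3 µM CHIR99021 (a GSK3 inhibitor) and 1 µM PD0325901 (a MEK inhibitor), which hold ESCs in the naive state. The serum ESCs with both reporters, grown with LIF, were split into GFP-positive RFP-positive and GFP-positive RFP-negative cells. A further serum and LIF ESC group carried only the distal-enhancer GFP reporter, and its reporter state was not given. The labels do not say how many lines or cultures stand behind the 2 arrays of a group. The p-values are thus measured against variation between arrays that may be technical only.

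Integrins are cell-surface receptors made of an alpha and a beta subunit. The pair decides the ligand: alpha3, alpha6 and alpha7 pair with beta1, and alpha6 also with beta4, to bind laminins; alpha1 and alpha11 with beta1 bind collagens; alpha5 with beta1, and alphav with several beta subunits, bind fibronectin and vitronectin; alphaE with beta7 binds E-cadherin. Laminins are trimers of an alpha, a beta and a gamma chain, secreted into basement membranes. The epiblast of the mouse embryo lies on such a membrane, which carries signals for its survival and for its turning into a polarised epithelium at implantation.

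Promoters of 14 of the 22 genes, in 16 entries, were found in RefSeq (build GRCm38.p6), from 250 bases before to 50 bases after the tabulated start and written 5′ to 3′ on the gene's strand. Among these 14, those of the called genes with the largest differences between EpiLCs and 2i ESCs in each direction are shown. Itga3 and Lamb3 were higher in EpiLCs and EpiSCs than in 2i ESCs, and Itgb7 and Itga11 were lower there. Itga11 was also high in fibroblasts. Capitals mark the GC box GGGCGG, searched on both strands.
Itga3, chr11:95076665-95076964, minus strand: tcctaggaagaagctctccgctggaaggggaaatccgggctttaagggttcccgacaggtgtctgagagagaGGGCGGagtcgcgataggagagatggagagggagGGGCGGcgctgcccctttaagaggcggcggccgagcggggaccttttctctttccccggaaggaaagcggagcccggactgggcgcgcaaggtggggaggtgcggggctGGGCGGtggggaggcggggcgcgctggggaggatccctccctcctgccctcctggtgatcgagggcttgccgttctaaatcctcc
Lamb3, chr1:193301744-193302043, plus strand: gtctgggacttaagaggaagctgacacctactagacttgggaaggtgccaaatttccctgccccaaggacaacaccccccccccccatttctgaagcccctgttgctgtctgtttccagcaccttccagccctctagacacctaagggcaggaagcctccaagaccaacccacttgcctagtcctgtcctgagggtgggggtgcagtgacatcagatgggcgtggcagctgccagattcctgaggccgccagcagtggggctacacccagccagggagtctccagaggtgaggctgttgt
Itgb7, chr15:102231886-102232185, minus strand: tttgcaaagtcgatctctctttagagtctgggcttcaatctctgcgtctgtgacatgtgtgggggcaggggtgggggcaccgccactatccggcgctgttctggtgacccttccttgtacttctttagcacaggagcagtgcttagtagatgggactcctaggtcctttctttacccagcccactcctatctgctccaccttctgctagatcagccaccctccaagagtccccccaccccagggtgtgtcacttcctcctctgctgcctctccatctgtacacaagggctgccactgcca
Itga11, chr9:62677605-62677904, plus strand: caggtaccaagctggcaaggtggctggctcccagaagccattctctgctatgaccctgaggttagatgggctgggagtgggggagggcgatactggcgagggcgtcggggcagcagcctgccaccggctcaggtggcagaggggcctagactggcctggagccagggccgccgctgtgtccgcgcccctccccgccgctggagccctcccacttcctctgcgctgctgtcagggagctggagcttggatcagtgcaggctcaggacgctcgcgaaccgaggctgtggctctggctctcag
Only the Itga3 window of these 4 held a GC box, with 3 copies at positions -178, -144 and -35 relative to the start. A GC box was found in 8 of the 16 entries, against 35.7% of all 32851 mouse promoters of the same length. Also searched on both strands were the CCAAT box, the TATA box as TATAAA, the AP-1 site as TGANTCA, the octamer as ATGCAAAT and the E-box as CACGTG. None of them matched in the 4 windows shown. In that order they were found in 2, 0, 2, 0 and 0 of the 16 entries. Over all promoters the shares were 37.4%, 13.6%, 7.8%, 1.7% and 7.2%. The base composition was 66.7% G and C for Itga3, 59.3% for Lamb3, 56.3% for Itgb7 and 68% for Itga11, against a median of 52.7% over all promoters. The tabulated starts of Itga3, Lamb3 and Itgb7 lie inside the annotated span of the gene, so other starts are annotated. These matches describe letters and not binding.

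Between 11916 and 13815 of 25697 probes per array were detected. The 2 arrays of a group correlated at 0.997 to 0.998 over the tested genes, except those of EpiSCs at 0.976. The EpiSC arrays also stood apart in scanner brightness, with medians of 313 and 317 against 143 to 209 on the other arrays. On them 13 of the 22 integrin and laminin genes differed by more than 0.5 log2 between the arrays. The median gap between the EpiSC arrays was 0.71 log2 for the 22 genes and 0.24 over all tested genes. The mean level of 16 fibroblast and feeder markers was 6.54 on EpiSC array 1 and 8.51 on EpiSC array 2. Other marker lists also differed between these arrays. Means on arrays 1 and 2 were 7.84 and 9.96 for 3 muscle markers and 6.19 and 7.42 for 8 blood and macrophage markers. For 10 pluripotency markers they were 11.74 and 10.59. The EpiSC differences that depend most on 1 array are therefore also given without it. All 10 pluripotency markers tested were lower in MEFs than in the mean of the 6 pluripotent groups, and all 16 fibroblast markers were higher.

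Levels below are log2 signals after background correction and quantile normalization. They hold for comparing groups within a gene, not for comparing genes, whose probes differ. A gene was called higher or lower where limma's adjusted p-value (Benjamini-Hochberg over all 10481 genes of a comparison) was under 0.05. For these 22 genes the 95% interval of a difference typically reached 0.49 log2 to either side (the median). Where a gene was not detected in a group, the fold is a bound: the mean of the brighter group over that of the dimmer group raised to the lowest detected signal of each array, written as "at least". In these bulk samples fewer cells of a type and less RNA per cell cannot be told apart.

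**Figure D1:**
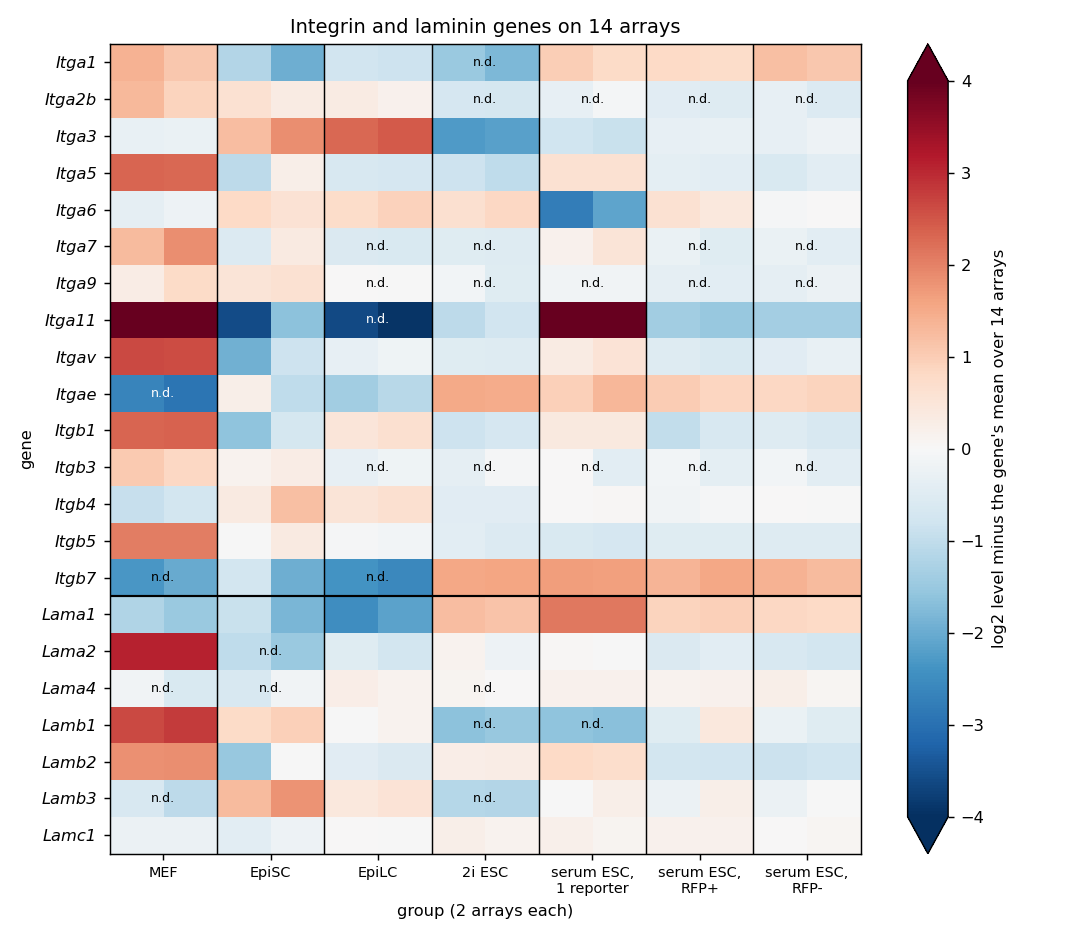
Log2 level of the 22 tested integrin (above the line) and laminin (below) genes on each array, minus the gene's mean over all 14 arrays, with red above and blue below that mean; n.d. marks groups in which neither array detected the gene. Itga11 was high in MEFs and single-reporter serum ESCs, Itga3 was high in EpiLCs and EpiSCs, and Itgae, Itgb7 and Lama1 were high in the ESC groups.

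EpiLCs were compared with 2i ESCs of the same reporters to ask how the subunits differ between epiblast-like and naive cells. In EpiLCs the laminin receptor subunits Itga3, Itgb1 and Itgb4 and the laminin beta chains Lamb1 and Lamb3 were higher, while the laminin alpha chain Lama1 and the subunits Itgae, Itgb7 and Itga11 were lower. In all, 13 of the 22 genes were called, 8 higher and 5 lower. Over all genes 55.1% were called, 27.5% higher and 27.6% lower, close to the share of the 22. The median difference was 0.20 log2 for the 22 and -0.01 for all genes.

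Itga3, the alpha subunit of a laminin receptor with beta1, had levels of 12.65 and 12.81 on the EpiLC arrays, against 8.08 and 8.17 on the 2i arrays. The groups were far apart, with a difference of 4.61 log2 (SE 0.16, adjusted p 1.44e-08, limma), or 24.4-fold. Only 0.506% of the tested genes differed more in either direction. Itgb1, the beta subunit shared by most of these receptors, was at 9.40 and 9.57 in EpiLCs, against 8.10 and 8.26 in 2i ESCs (difference 1.31, SE 0.24, adjusted p 0.001). Its second probe also rose, by 1.05 log2. Itgb4, the partner of alpha6 that anchors hemidesmosomes of epithelia, was at 9.01 and 9.12 in EpiLCs, against 8.02 on both 2i arrays (difference 1.04, adjusted p 0.00187). Each of these sets of arrays was separate. The partner itself, Itga6, did not pass the test: it was at 8.65 and 8.86 in EpiLCs and at 8.56 and 8.76 in 2i ESCs, overlapping, with a difference of 0.10 and an interval from -0.33 to 0.53.

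Among the laminin chains, Lama1, the alpha chain of the earliest basement membranes of the embryo, was at 6.91 and 7.24 in EpiLCs, against 10.61 and 10.53 in 2i ESCs. It fell by 3.50 log2 (SE 0.24, adjusted p 1.44e-06), an 11.3-fold lower signal. The beta chains went the other way. Lamb1, a beta chain widely used in embryonic laminins, was at 7.22 and 7.37 in EpiLCs and was not detected in 2i ESCs, at least 2.71-fold higher (adjusted p 0.00021). Lamb3, the beta chain of laminins under stratified epithelia, was at 6.67 and 6.78 in EpiLCs and was likewise not detected in 2i ESCs, at least 1.83-fold higher (adjusted p 0.000107). Lamc1, the gamma chain of most laminins, did not pass, at 11.58 and 11.56 in EpiLCs and 11.82 and 11.70 in 2i ESCs (difference -0.19, adjusted p 0.0807). Epithelial markers moved with Itgb4 and Lamb3: 6 of 9 were higher and none lower, with means of 10.6 on both EpiLC arrays, against 8.53 and 8.59 on the 2i arrays, and their part was not tested. Lamb2 had a difference of -0.80 (adjusted p 0.0769), and Lama2, a chain of muscle and nerve basement membranes near its detection limit here, was lower by a difference of -0.58 (adjusted p 0.0103), a call lost without 2i array 1 and without EpiLC array 2 (adjusted p up to 0.0882).

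Both subunits of the E-cadherin receptor alphaE-beta7, best known from T cells of epithelia, were lower in EpiLCs. Itgae had levels of 6.83 and 7.13 in EpiLCs, against 9.75 and 9.73 in 2i ESCs (difference -2.76, SE 0.32, adjusted p 5.51e-05). Itgb7 was not detected in EpiLCs, against 8.96 and 8.99 in 2i ESCs, at least 9.09-fold lower (adjusted p 2.38e-06). Neither gene's arrays overlapped between the groups. The other bright probe of Itgae gave -2.72 log2, a dim probe gave -0.87, and 3 further probes were detected on at most 1 array. The mean level of 8 blood and macrophage markers was 5.90 and 5.86 on the EpiLC arrays (2 detected on each), against 6.63 and 6.72 on the 2i arrays (3 detected on each). Of the 8, 1 was called higher and 2 lower in EpiLCs, where 27.5% of all genes were higher and 27.6% lower. Summed over the 8, linear signals were 917 and 875 on the EpiLC arrays, against 8196 and 8834 on the 2i arrays. Tyrobp and Fcer1g were not detected on any of the 12 pluripotent arrays. On the double-reporter serum arrays 5 or 6 of the 8 were detected, and on EpiSC array 2 there were 6. The part of these markers in the Itgae and Itgb7 differences was not tested.

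Itga11, a receptor subunit for fibrillar collagens known from fibroblasts, was not detected in EpiLCs, against 7.80 and 8.10 in 2i ESCs, at least 4.48-fold lower (adjusted p 0.000475). Its 3 probes did not all do the same: a second probe gave -1.24 log2 and the third, below background in both groups, -0.02. The fibroblast marker list moved the same way, with means of 6.93 and 6.89 in EpiLCs against 7.63 and 7.57 in 2i ESCs, with 6 of 16 markers lower and 2 higher; its part in the Itga11 difference was not tested. Itga1, another collagen receptor subunit, was detected at 6.15 and 6.07 in EpiLCs and not in 2i ESCs, at least 1.19-fold higher (adjusted p 0.0108). That call was lost without 2i array 2 and without EpiLC array 1 (adjusted p up to 0.0794). The fibronectin and vitronectin receptor subunits moved little. Itgb5, which pairs with alphav, was higher by 0.41 log2 (adjusted p 0.011), a call lost without 2i array 2, without EpiLC array 1 and with scaling to the median (adjusted p up to 0.186). Itga5 and Itgav had differences of 0.26 and 0.24 (adjusted p 0.51 and 0.482).

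**Figure D2:**
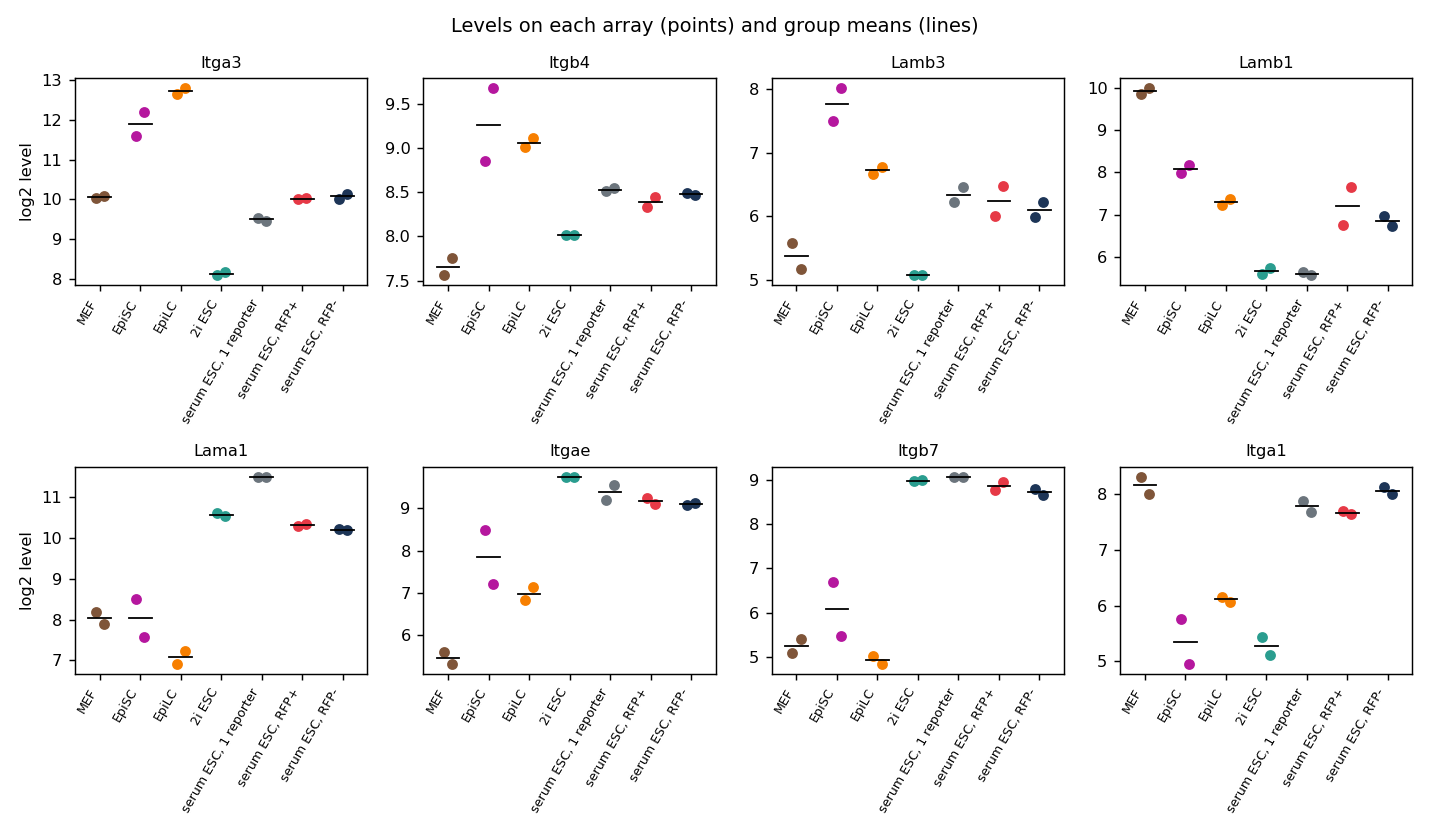
Log2 level on each array (points, 2 per group) and group mean (lines) for 8 integrin and laminin genes; the vertical axes differ between panels. Itga3 was highest in EpiLCs and lowest in 2i ESCs, Lamb3 was highest in EpiSCs, and Lama1, Itgae and Itgb7 were high in all 4 ESC groups.

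Genes that work with integrins and laminins were read from lists chosen by function. Of 29 tested genes of the cytoplasmic adhesion machinery, which ties integrins to actin, 10 were higher and 4 lower in EpiLCs, where 27.5% of all genes were higher and 27.6% lower. Zyx (zyxin, at mature adhesions) was higher by 3.66 log2 and the endocytic adaptor Dab2 by 3.42. The scaffold Bcar1 was higher by 2.36 and Parva, which binds the kinase ILK, by 1.65. Dab2 is also a marker of extraembryonic endoderm. Of 23 basement membrane partners, 4 were higher and 7 lower: the collagen IV chain Col4a1 was higher by 1.69, whereas the collagen IV binder Nid2 differed by -1.24 and Smoc1 by -1.40. Of 24 other integrin ligands, 5 were higher and 10 lower, with collagen chains Col1a1 at -4.54 and Col6a1 at -3.96. Col1a1 is also a fibroblast marker. Of 8 hemidesmosome genes, 4 were higher and none lower. They were the keratins Krt18 (at least 27.4-fold) and Krt8 (4.12 log2), which are general epithelial keratins, the tetraspanin Cd151 (1.07), which binds laminin receptors, and the cytolinker Eppk1 (0.58). Among 12 tetraspanins and associated proteins, 3 were higher and 3 lower, led by Cd9 at -2.34. The median differences of the lists ran from -0.63 for the other ligands to 0.52 for the hemidesmosome genes.

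EpiSCs were set against the same 2i arrays. In EpiSCs Itga3, Lamb3 and Lamb1 were higher, and Itgb7, Lama1, Itgae and Itga11 lower. Because this comparison shares the 2i arrays with the previous one, the values of both stand side by side and their likeness was not tested. Here 16 of the 22 genes were called, 7 higher and 9 lower, against 66.3% of all genes, 32.4% higher and 33.9% lower. With EpiSC array 1 left out 17 were called and with array 2 left out 18. The calls of 15 of the 16 held in both cases, 7 higher and 8 lower. The exception was Lama4, which was not detected in either group. Without 2i array 1 or without 2i array 2, 13 of the 16 calls were kept. On the 4 arrays compared alone 12 were kept, without Itga11, Itgav, Lamb2 and Lama4.

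Itga3 had levels of 11.59 and 12.21 on the EpiSC arrays, against 8.08 and 8.17 on the 2i arrays (difference 3.78, SE 0.16, adjusted p 4e-08). Itgb4 was at 8.85 and 9.68 in EpiSCs, against 8.02 on both 2i arrays (difference 1.25, adjusted p 0.000452). Itga6 was at 8.72 and 8.50 in EpiSCs and at 8.56 and 8.76 in 2i ESCs, overlapping (difference -0.05, interval -0.48 to 0.38). For Itgb1 the probes disagreed on the call. The brighter probe gave 7.32 and 8.22 in EpiSCs, against 8.10 and 8.26 in 2i ESCs, a difference of -0.40 that did not pass (adjusted p 0.156), while the second probe differed by -1.07 (adjusted p 0.0034). The brighter probe passed without EpiSC array 2 (difference -0.85, adjusted p 0.000505).

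The 7 tested laminin chains were all called in this comparison, 2 higher and 5 lower. Over all genes 66.3% were called, 32.4% higher and 33.9% lower. Lama4, 1 of the 5 lower, was not detected in either group, and its call was lost under 17 alternatives. Lamb3 was at 7.50 and 8.02 in EpiSCs and not detected in 2i ESCs, at least 3.74-fold higher (adjusted p 2.52e-06). Lamb1 was at 7.99 and 8.17 in EpiSCs and not detected in 2i ESCs, at least 4.67-fold higher (adjusted p 1.01e-05). The 9 epithelial markers had means of 11.1 and 11.3 on the EpiSC arrays, against 8.53 and 8.59 on the 2i arrays, with 6 higher and none lower, and their part in Lamb3 and Itgb4 was not tested. Lama1 was at 8.51 and 7.58 in EpiSCs, against 10.61 and 10.53 in 2i ESCs (difference -2.53, adjusted p 1.02e-05). Lamb2 was at 8.37 and 9.86 in EpiSCs, against 10.15 and 10.16 in 2i ESCs (difference -1.04, adjusted p 0.0233). That difference was -0.30 without EpiSC array 1 and -1.79 without array 2, and the call was lost without either 2i array and on the 4 arrays compared alone (adjusted p up to 0.174). Lamc1 fell by 0.50 log2 (adjusted p 0.000512). Lama2 was not detected in EpiSCs and was at least 1.51-fold lower than in 2i ESCs. Extraembryonic endoderm secretes laminin in the embryo, and 7 of 12 tested markers of it were higher in EpiSCs than in 2i ESCs and 1 lower. The mean level of those markers was 8.02 and 7.71 on the EpiSC arrays, against 6.15 and 6.12 on the 2i arrays. Among them Sox17 averaged 7.41 in EpiSCs and was not detected in 2i ESCs. Their part in the laminin differences was not tested.

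Itgae was at 8.48 and 7.21 in EpiSCs, against 9.75 and 9.73 in 2i ESCs (difference -1.89, adjusted p 0.000537). Itgb7 was detected on 1 of the 2 EpiSC arrays, at 6.68 and 5.46, against 8.96 and 8.99 in 2i ESCs (difference -2.90, adjusted p 1.77e-05). Itga11 spread widely, with 5.29 and 7.23 on the EpiSC arrays, against 7.80 and 8.10 in 2i ESCs (difference -1.69, adjusted p 0.00854). All 3 were lower on both EpiSC arrays than on either 2i array. Without EpiSC array 1 the difference of Itga11 was -0.73 and without array 2 it was -2.66, and its call was lost on the 4 arrays compared alone (adjusted p 0.112). For Itgae the difference was -2.53 without array 1 and -1.26 without array 2. Itgav, which fell by 0.89 log2 (adjusted p 0.0142), was at 6.00 and 7.07 in EpiSCs, against 7.43 and 7.41 in 2i ESCs. Its difference was -0.35 without EpiSC array 1 and -1.42 without array 2, and its call was lost without either 2i array and on the 4 arrays compared alone (adjusted p up to 0.131). Itgb5, the partner of alphav, was higher by 0.65 log2 (adjusted p 0.000546). Itga5, the fibronectin receptor subunit, was at 7.55 and 8.86 in EpiSCs, on either side of the 2i values of 7.77 and 7.60. The difference of 0.52 did not pass (adjusted p 0.168) but did without EpiSC array 1 (1.17, adjusted p 4.4e-06), and the second probe of the gene passed with all arrays (0.66, adjusted p 0.0257). Itga9, a receptor subunit for tenascin, was at least 1.32-fold higher in EpiSCs. Itga2b, the platelet fibrinogen receptor subunit, was at least 1.2-fold higher, and both were close to the detection limit. Itga9 passed the detection rule in EpiSCs only, so the rule itself favoured a higher level there. Of the 22 genes 15 were higher on EpiSC array 2 and 7 were lower. The fibroblast, muscle and blood markers also had higher means on that array, and the pluripotency markers a lower one. Among the 13 genes called higher in MEFs, calls that use these same arrays, 10 were higher on array 2 and 3 lower. Among the 9 others 5 were higher and 4 lower. The same counts were not made over all genes, so they do not show a trait of the 22. The part of fibroblasts or of any other cell type in these differences was not tested.

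**Figure D3:**
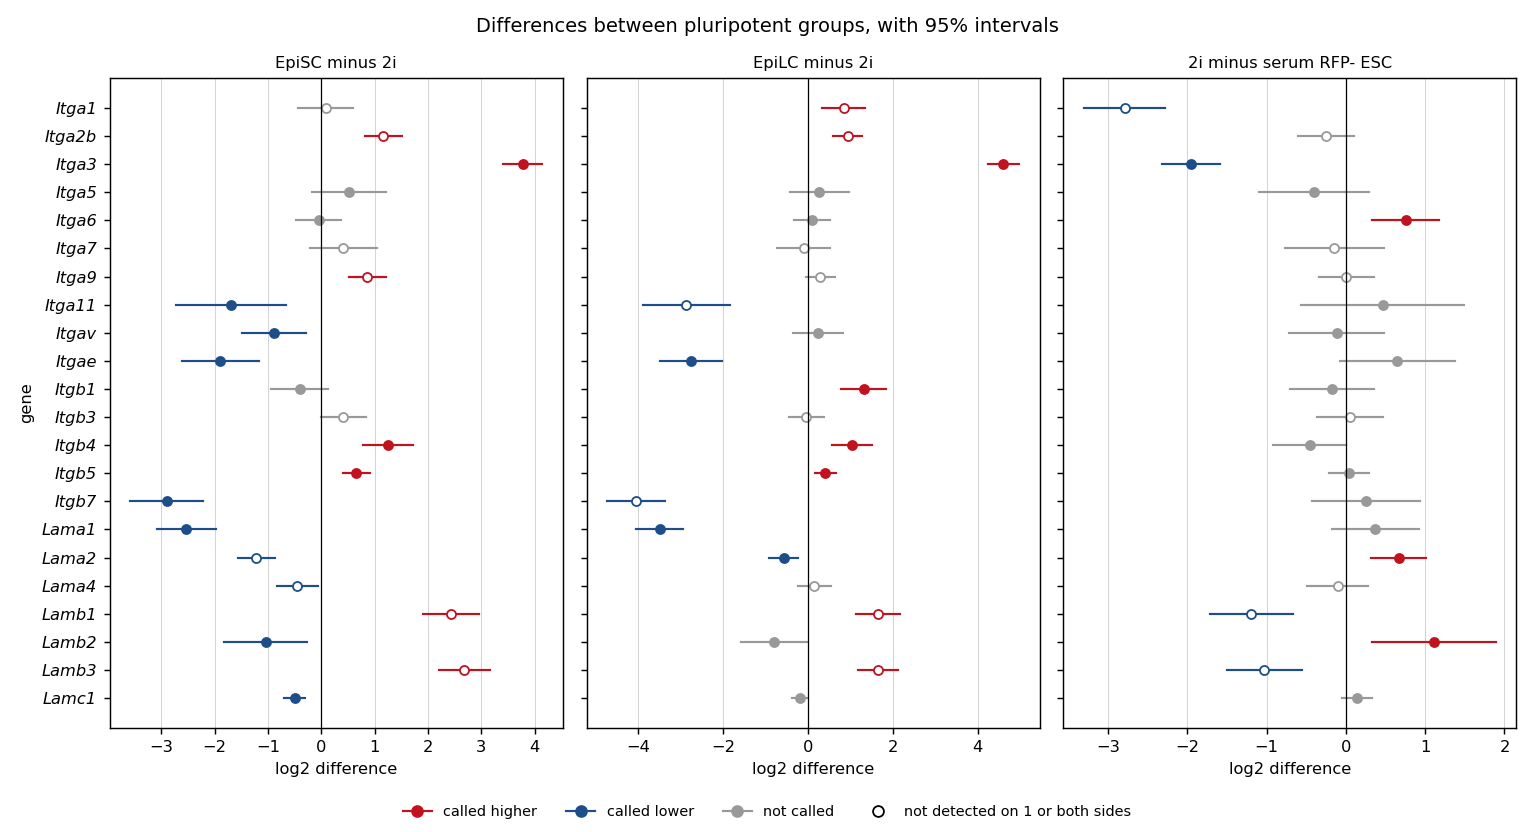
Log2 differences of the 22 genes with 95% intervals for EpiSCs minus 2i ESCs, EpiLCs minus 2i ESCs and 2i ESCs minus RFP-negative serum ESCs; red and blue points were called higher and lower, grey points were not called, and open points were not detected on at least 1 side. Itga3 lay at 3.78 and 4.61 log2 in the first and middle panels and at -1.95 in the last, whose 2i arrays they share.

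Over all genes 32.4% were higher and 33.9% lower in EpiSCs than in 2i ESCs. Of the adhesion machinery, 11 of 29 genes were higher and 6 lower. Among them Dab2 (4.13 log2), Zyx (3.49) and Parva (2.48) were higher and Kank2, a talin-binding protein, was lower (-2.10). Dab2 is also an extraembryonic endoderm marker. Of 23 basement membrane partners 12 were higher, 3 lower and 8 not called. Col4a1 was higher by 2.51 log2 and Col4a2 by 2.14, while Tinagl1 was at least 2.54-fold and Col4a5 at least 2.13-fold higher. Of the 8 hemidesmosome genes 5 were higher and 1 lower. Krt18 was at least 93.2-fold higher and Krt8 higher by 5.47 log2, both general epithelial keratins. The lower gene was the collagen Col17a1, not detected in EpiSCs and at least 1.43-fold lower. Other ligands were split, 6 higher and 7 lower of 24: the matricellular protein Ccn1 was higher by 3.68 log2 and Col1a1 differed by -2.78. Col1a1 is also a fibroblast marker.

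EpiSCs and EpiLCs were also compared directly, since both model the post-implantation epiblast. Itgb1, Itga3 and Itgav were lower in EpiSCs than in EpiLCs, and Lamb3, Lama1 and Lamb1 were higher. In all 13 of 22 genes were called, 6 higher and 7 lower, against 56.4% of all genes, 27.9% higher and 28.5% lower. Left out in turn, EpiSC array 1 gave 17 calls and array 2 gave 13, and 9 of the 13 calls held in both cases. With EpiLC array 1 left out 7 were called, and with EpiLC array 2 left out 9. Fitted on the 4 EpiSC and EpiLC arrays alone, 4 genes were called: Itgb1, Itga9, Lamb1 and Lamb3.

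Itgb1 had 7.32 and 8.22 on the EpiSC arrays, against 9.40 and 9.57 on the EpiLC arrays (difference -1.71, SE 0.24, adjusted p 0.000202), and its second probe differed by -2.12. Lamb3 was at 7.50 and 8.02 in EpiSCs, against 6.67 and 6.78 in EpiLCs (difference 1.04, adjusted p 0.0023). Lamb1 was at 7.99 and 8.17 in EpiSCs, against 7.22 and 7.37 in EpiLCs (difference 0.78, adjusted p 0.0167). These groups did not overlap. Itga3 had 11.59 and 12.21 in EpiSCs, against 12.65 and 12.81 in EpiLCs (difference -0.83, adjusted p 0.00181). Lama1 differed by 0.97 (adjusted p 0.00719) and Itgav by -1.13 (adjusted p 0.00515). Itgae was higher by 0.87 (adjusted p 0.0438) and Itgb7 at least 1.22-fold higher, while Itga1 differed by -0.76 and Lamc1 by -0.31. Without EpiSC array 1 the differences were -0.52 for Itga3, 0.50 for Lama1, -0.59 for Itgav and -1.16 for Itga1, that of Itgae did not pass (0.23, adjusted p 0.278), and that of Itgb7 was 0.54. Without array 2 Lamb1 and Itga1 did not pass (adjusted p 0.067 and 0.0958), and Itgb7 differed by 1.76. Itga9, not detected in EpiLCs, was at least 1.38-fold higher in EpiSCs. Lama4 and Lama2, not detected in EpiSCs, were at least 1.14-fold and at least 1.01-fold lower. The call on Lama4 was lost without EpiSC array 1. Calls on Lamb1, Lama1, Lama4, Lamc1, Itga1 and Itgae were lost without EpiLC array 1. Those on Itga1, Itga9, Itgae and Itgb7 were lost without EpiLC array 2. Itgb4 did not pass with the brighter probe (difference 0.20, adjusted p 0.425) but did with its second (0.79, adjusted p 0.00444). Lamb2 and Itga5 turned with the array: without EpiSC array 1 Lamb2 differed by 0.50 and Itga5 by 0.91, and without array 2 by -0.98 and -0.40. Of the 12 extraembryonic endoderm markers 9 were higher in EpiSCs than in EpiLCs and 1 lower, and their part in the laminin differences was not tested.

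Among the partners of integrins, Bcar1 was lower in EpiSCs than in EpiLCs by a difference of -2.07 log2 and the kindlin Fermt1, which activates integrins, by -1.38, with 8 of 29 machinery genes higher and 9 lower, against 27.9% of all genes higher and 28.5% lower. Of 23 basement membrane partners 8 were higher and 1 lower, with Smoc1 at 1.78 and Fbln1 at 1.13 log2. The adhesion ligand Icam1 was higher by 1.98 log2, among 8 higher and 2 lower of the 24 other ligands.

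The medium was examined by setting 2i ESCs against the RFP-negative serum ESCs, which share their reporters and reporter state. Itga1, Itga3, Lamb1 and Lamb3 were lower in 2i ESCs, and Itga6, Lama2 and Lamb2 higher. These 7 of 22 genes, 3 higher and 4 lower, compare with 39.7% of all genes called, 19.7% higher and 20% lower. Without either or both of the EpiSC arrays, which enter the error of the shared model, the 7 remained and 5 more were called, 12 in all: Itgae, Itga11 and Lama1 higher and Itga5 and Itgb4 lower. The same 12 were called from the 4 arrays compared alone.

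Itga1 was not detected in 2i ESCs, against 8.13 and 7.99 in RFP-negative serum ESCs, at least 4.62-fold lower (adjusted p 1.37e-05). In the serum groups and MEFs it was detected on every array. Itga3 was at 8.08 and 8.17 in 2i ESCs, against 10.01 and 10.14 in RFP-negative serum ESCs (difference -1.95, adjusted p 1.51e-05), or 3.87-fold. Over the 7 groups the mean level of Itga3 was 8.12 in 2i ESCs, 9.49 in single-reporter ESCs, 10.02 in RFP-positive serum ESCs, 10.06 in MEFs, 10.08 in RFP-negative serum ESCs, 11.90 in EpiSCs and 12.73 in EpiLCs. The RFP-negative arrays, at 10.01 and 10.14, overlapped with those of RFP-positive ESCs and spanned those of MEFs. Lamb1, not detected in 2i ESCs, was at 6.95 and 6.74 in RFP-negative serum ESCs, at least 1.99-fold lower in 2i (adjusted p 0.00276). Lamb3 was at 5.99 and 6.23 in those serum ESCs, at least 1.19-fold lower in 2i (adjusted p 0.00362).

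Itga6 was at 8.56 and 8.76 in 2i ESCs, against 7.87 and 7.94 in RFP-negative serum ESCs (difference 0.75, adjusted p 0.0109). Lamb2 was at 10.15 and 10.16 in 2i ESCs, against 9.01 and 9.09 in RFP-negative serum ESCs (difference 1.11, adjusted p 0.0298). The arrays of each gene were separate. The call on Lamb2 was lost when any of these 4 arrays was left out (adjusted p up to 0.117), and that on Itga6 without 2i array 2 and without RFP-negative array 1 (adjusted p up to 0.0748). Lama2 was higher in 2i ESCs by 0.67 log2 (adjusted p 0.00724), a call lost without 2i array 1 (adjusted p 0.0641). Lama1 and Itgae, high in both media, had differences of 0.37 and 0.65 (adjusted p 0.264 and 0.144). The fibroblast markers had means of 7.63 and 7.57 in 2i ESCs, against 8.35 and 8.32 in RFP-negative serum ESCs, with 5 of 16 lower and 2 higher, and their part in the lower Itga1 was not tested. The 9 epithelial markers had means of 8.53 and 8.59 in 2i ESCs, against 9.92 and 10.01 in RFP-negative serum ESCs, with 5 lower and none higher, and their part in Itga3 and Lamb3 was not tested.

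The adhesion machinery was lower in 2i ESCs for 11 of 29 genes and higher for 3, where 20% of all genes were lower and 19.7% higher. Among the lower ones were Dab2 (-3.36 log2), Zyx (-2.82), Fermt1 (-2.75) and the FAK-related kinase Ptk2b (-1.79). Dab2 is also an extraembryonic endoderm marker. Of 23 basement membrane partners 5 were higher and 3 lower, the proteoglycans Sdc2 (1.33) and Sdc3 (-1.41) in opposite directions. The ligand Tnc (tenascin C) differed by -2.89, with 3 of 24 other ligands higher and 4 lower.

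The proximal-enhancer reporter was examined by setting RFP-positive against RFP-negative serum ESCs. No integrin or laminin gene passed, 0 of 22, against 0.124% of all genes (13, all lower). At an unadjusted p under 0.05 there was 1 member, Itga6, and 578 of all genes. Every alternative processing gave 0 members as well. Itga6 was at 8.54 and 8.34 in RFP-positive cells, against 7.87 and 7.94 in RFP-negative cells. Its arrays were separate, with a difference of 0.53 log2 (interval 0.10 to 0.96, adjusted p 0.707). The other 21 differences lay between -0.40 for Itga1 (interval -0.91 to 0.12) and 0.35 for Lamb1 (interval -0.17 to 0.87). Itga3, which separated EpiLCs from ESCs, differed by -0.06 (interval -0.42 to 0.31). None of the 5 lists of partners held a called gene.

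Single-reporter serum ESCs were compared with the mean of both double-reporter serum groups, ESCs in the same medium with another transgene set. Itga11, Lamb2, Lama1, Itgb1, Itga5, Itgav, Lama2 and Itga7 were higher in the single-reporter cells, and Itga6, Lamb1 and Itga3 were lower. These 11 of 22 genes, 8 higher and 3 lower, compare with 63.1% of all genes called, 31.3% higher and 31.8% lower. The single-reporter arrays had fibroblast marker means of 10.2 and 10.3, against 8.30 to 8.35 on the 4 double-reporter arrays. Of the 16 markers 12 were higher and 1 lower. Among the defining ones, Lum averaged 11.02 in single-reporter ESCs, against 6.37 and 6.52 in the double-reporter groups, and Dcn 13.38 against 10.64 and 10.63. Postn was not detected in any of these ESC groups. Extraembryonic endoderm markers had means of 7.31 and 7.32 in single-reporter ESCs, against 6.77 to 6.89 on the double-reporter arrays, with 6 of 12 higher and 1 lower; Gata6 averaged 7.98 in single-reporter ESCs and Sox17 was not detected in any of the 3 groups. Epithelial markers had means of 9.16 and 9.08 in single-reporter ESCs, against 9.81 to 10.01, with 7 of 9 lower and none higher. Of 10 pluripotency markers 6 were lower and none higher. The part of these markers in the integrin and laminin differences was not tested.

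Itga11 was at 13.17 and 13.21 in single-reporter ESCs, against 7.34 to 7.49 on the 4 double-reporter serum arrays (difference 5.75, SE 0.40, adjusted p 1.1e-06), or 53.8-fold. All 3 of its probes were higher, by 5.75, 5.93 and 2.26 log2. Itgb1, its partner, was at 9.33 and 9.31 in single-reporter ESCs, against 7.96 to 8.41 on the double-reporter arrays (difference 1.08, adjusted p 0.00109). The fibronectin receptor subunit Itga5 was at 9.21 on both single-reporter arrays, against a mean of 8.14 over the double-reporter groups (difference 1.07, adjusted p 0.00598). Itgav was at 8.23 and 8.45, against 7.29 to 7.63 on the double-reporter arrays (difference 0.90, adjusted p 0.00637), a call lost without single-reporter array 2 (adjusted p 0.0572). In each of these the 2 groups were separate, and these genes were also highest of all in MEFs.

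Itga6 went the other way. It was at 5.18 and 5.82 in single-reporter ESCs, with 1 of 2 arrays detected, against 7.87 to 8.54 on the double-reporter arrays (difference -2.67, SE 0.16, adjusted p 5.28e-07). Its level there was the lowest of the 7 groups, below the 7.56 and 7.74 of MEFs. Lamb1 was not detected in single-reporter ESCs, at least 2.33-fold lower than in the double-reporter groups (adjusted p 0.000161), although it was at 9.87 and 10.01 in MEFs. Lama1 was at 11.49 and 11.50 in single-reporter ESCs, against 10.18 to 10.33 (difference 1.24, adjusted p 0.000544), while MEFs were at 8.18 and 7.90. Itga7, the laminin receptor subunit of muscle, was detected on 1 of 2 single-reporter arrays, at 5.69 and 6.05, and on no double-reporter array. It was at least 1.14-fold higher (adjusted p 0.026), a call lost under 3 of the settings that leave out 1 array (adjusted p up to 0.185). Lamb2 was higher by 1.54 log2 (adjusted p 0.00136) and Lama2 by 0.62 (adjusted p 0.00255), while Itga3 differed by -0.55 (adjusted p 0.00633). The gene pair Itgae and Itgb7 did not pass, with differences of 0.25 and 0.27 (adjusted p 0.471 and 0.389).

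**Figure D4:**
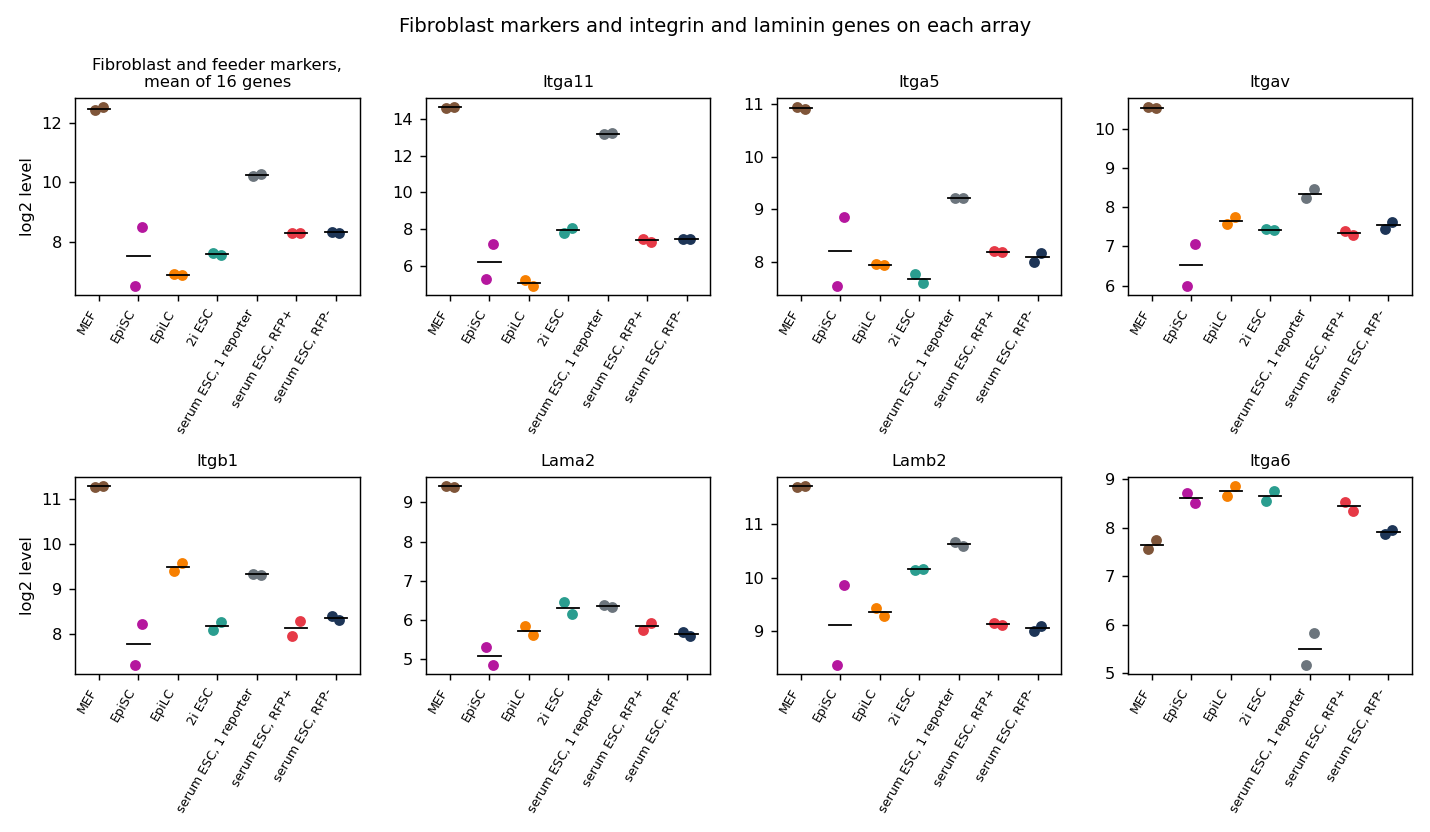
Mean log2 level of 16 fibroblast and feeder markers (first panel) and log2 level of 7 integrin and laminin genes on each array (points), with group means (lines); the vertical axes differ between panels. Itga11, Itga5, Itgav, Itgb1 and Lamb2 were highest in MEFs, and Itga6 was lowest in single-reporter serum ESCs.

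Over all genes 31.3% were higher in single-reporter ESCs and 31.8% lower. Of 23 basement membrane partners 17 were higher and 1 lower, among them Col4a5 (4.16 log2) and Col4a1 (3.61), and of 24 other ligands 15 were higher and 2 lower, led by Tgfbi (5.44) and Thbs1 (4.09). The hemidesmosome list had 3 of 8 lower and none higher, among them the plakin Dst (-2.92). Of 29 machinery genes 9 were higher and 7 lower, with a median difference of 0.05. Of 12 tetraspanins and associated proteins 7 were higher and 1 lower, which was Slc3a2 (-3.28), an amino acid transporter chain that binds beta subunits.

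MEFs were set against the mean of the 6 pluripotent groups. Nearly all the integrin and laminin genes differed, 21 of 22, with 13 higher and 8 lower, against 84% of all genes, 39.8% higher and 44.1% lower. Collagen, fibronectin and vitronectin receptor subunits and the chains Lama2, Lamb1 and Lamb2 were higher in MEFs. Itgae, Itgb7, Itgb4, Lama1 and Lamb3 were lower. The median difference was 1.19 log2 for the 22 genes, against -0.09 for all genes.

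Itga11 was at 14.59 and 14.64 in MEFs, against a mean of 7.90 over the pluripotent groups (difference 6.72, SE 0.35, adjusted p 3.62e-08). Without the single-reporter group, a comparison added after the values were seen, the difference was 7.78. Itgav was at 10.56 and 10.52 in MEFs, against 6.00 to 8.45 on the pluripotent arrays (difference 3.06, adjusted p 2.21e-07). Itgb1 was at 11.27 and 11.29 in MEFs, against 7.32 to 9.57 (difference 2.74, adjusted p 2.12e-07). Itga5 was at 10.95 and 10.91 in MEFs, against 7.55 to 9.21 (difference 2.71, adjusted p 1.95e-06). Itgb5 was at 13.73 and 13.75 in MEFs, against 11.01 to 12.06 (difference 2.38, adjusted p 2.65e-09). For each of these genes every MEF array lay above all 12 pluripotent arrays. Itga1 was higher by 1.45 log2, and its serum ESC arrays, at 7.63 to 8.13, reached the MEF range of 7.99 to 8.31. Itga7, Itgb3, Itga2b and Itga9, near their detection limit in the pluripotent groups, were higher by 1.82, 1.10, 1.27 and 0.63 log2. Without MEF array 2 the difference of Itga9 was 0.40. Itga7 and Itgb3 passed the detection rule in MEFs only, so the rule itself favoured a higher level there. Both are counted among the genes called higher. Blood and macrophage markers, with all 8 detected, had means of 8.96 and 9.02 in MEFs, against 5.86 to 7.64 on the pluripotent arrays. Itga2b and Itgb3 are platelet receptor subunits. The second probe of Itga2b, detected on no array, gave 0.15 log2 (adjusted p 0.308, limma). The 1 tested gene of a megakaryocyte and platelet marker list was at 9.30 and 9.06 in MEFs, higher by 3.38 log2. The part of blood cells in the levels of Itga2b and Itgb3 was not tested.

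Laminin chains parted in MEFs. Lama2 was at 9.43 and 9.40 in MEFs, against 4.86 to 6.46 on the pluripotent arrays (difference 3.59, adjusted p 1.52e-09). Lamb1 was at 9.87 and 10.01, against 5.55 to 8.17 (difference 3.17, adjusted p 6.46e-08), and Lamb2 at 11.70 and 11.73, against 8.37 to 10.67 (difference 2.14, adjusted p 2.94e-05). These 3 chains were separate from every pluripotent array. Lama1 was at 8.18 and 7.90 in MEFs, within the pluripotent range of 6.91 to 11.50, with a difference from the mean of -1.57 (adjusted p 2e-05). Lamb3 was not detected in MEFs, at least 1.15-fold lower. Lama4, a chain of vessel basement membranes close to its detection limit throughout, was not detected in MEFs either (difference -0.43, adjusted p 0.0115). Its call was lost without MEF array 2 (-0.19, adjusted p 0.253). Lamc1 was called lower by a small margin, at 11.32 and 11.33 in MEFs, within the 11.16 to 11.82 of the pluripotent arrays (difference -0.28, adjusted p 0.00222).

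Itgae, Itgb7 and Itgb4 were lower in MEFs. Itgae was not detected, at least 5.76-fold lower than the pluripotent mean (adjusted p 6.35e-07), and Itgb7 was not detected either, at least 3.01-fold lower (adjusted p 2.66e-06). Their ligand E-cadherin, Cdh1, was not detected in MEFs, at least 60.7-fold lower. It is 1 of 9 epithelial markers, all lower in MEFs, with means of 5.99 and 5.89, against 8.53 to 11.3 on the pluripotent arrays. Itgb4 was at 7.56 and 7.75 in MEFs, against 8.02 to 9.68 on the pluripotent arrays (difference -0.97, adjusted p 0.000229). Itga6 did not pass (difference -0.33, interval -0.65 to 0.00, adjusted p 0.0595). Itga3 was called lower by a difference of -0.33 (adjusted p 0.0299), a call lost without the EpiSCs, where the difference was -0.03. EpiLCs, whose mean of 12.73 was above the 11.90 of EpiSCs, were not left out as a group. The call was also lost without either MEF array.

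**Figure D5:**
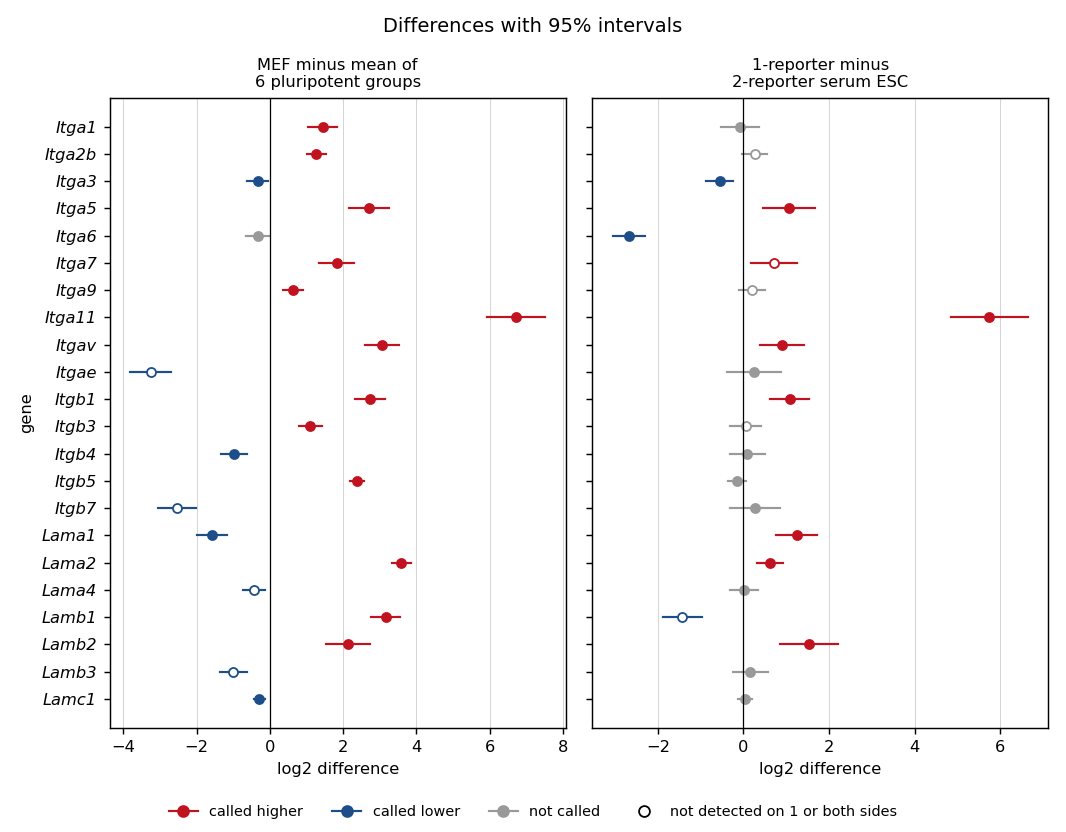
Log2 differences of the 22 genes with 95% intervals for MEFs minus the mean of 6 pluripotent groups and for single-reporter minus double-reporter serum ESCs; red and blue points were called higher and lower, grey points were not called, and open points were not detected on at least 1 side. Itga11 lay at 6.72 and 5.75 log2, and Itga6 at -0.33 and -2.67.

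Of the adhesion machinery, 24 of 29 genes were higher in MEFs and 2 lower, against 39.8% of all genes higher and 44.1% lower. Cav1 (caveolin) was higher by 5.62 log2, the ILK partner Lims2 by 4.66 and Parva by 3.89. Of the other ligands 20 of 24 were higher and 3 lower, and of the basement membrane partners 15 of 23 were higher and 6 lower, with Col4a5 at 6.01 and Nid1 at 4.71 log2. The hemidesmosome list split into 3 higher, including Plec (plectin, 2.73), and 5 lower, including Krt8 (-2.94).

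The genes that failed the detection rule were Itga2, Itga4, Itgam, Itgax, Itgb2, Itgb6, Itgb8 and Lamc3. Itgam, Itgax and Itgb2 are subunits of leukocyte receptors. Their levels on all arrays lay between 4.62 and 6.05, where undetected probes lie. Itgb2 was detected on 2 arrays and Lamc3 on 1, and the other 6 on none, including the 3 probes of Itgb6. Itga4, the usual partner of beta7 beside alphaE, was thus not detected on any array. This describes the probes used and does not show that the genes were silent.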

How the data were processed

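Total RNA was amplified to biotin-labelled cRNA and hybridised to Illumina mouse beadchips, per the labels' protocols. The authors deposited a table of non-normalized probe intensity with a detection p-value for each probe and array, per the file headers. GenomeStudio 2011.1 is named in the submitters' processing notes, and its background setting was not given in the sources used here. The authors also deposited log2 processed values. All 14 columns of that table had a median of 7.53 and lay within 0.01 of quantile-normalized log2 intensities, and they served as an alternative.

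Intensities were corrected and normalized with neqc in limma 3.58.1 (R 4.3.3): normexp with negative controls inferred from the detection p-value, offset 16, quantile normalization, log2. The brightest detected probe stood for each gene. All arrays entered 1 model of 7 group means (lmFit, eBayes; 7 residual and 2.5 prior degrees of freedom), with p-values adjusted over 10481 genes in each of 7 comparisons. Comparisons that use the same arrays (those of 2i ESCs, EpiLCs, EpiSCs and RFP-negative serum ESCs) are not independent. Replicate numbers did not pair arrays: correlations of deviations were -0.03 to 0.09 over 21 pairs of groups, with 0 over 0.1. The number of arrays limits precision.

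The genes and all lists were chosen with earlier results of these data known. Every tested gene of the integrin and laminin list is reported. From each list of partners, at most 4 called genes with the largest change were eligible to be named per comparison. No slide or date was given, so no batch was tested. Alternatives changed background correction, scaling, detection rule, probe choice, variance model, replicate block, groups in the fit and each array.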

Additional observations from a re-analysis of the deposited data

How the results depend on the processing

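Of the 81 calls on integrin and laminin genes, 56 held under every alternative in which the gene was tested. The other 25 were lost under at least 1, and none of the 81 turned. Itga2b, Itga9, Itgb3 and Lama4 dropped out of the test at a detection p-value under 0.01, and that setting is not counted as a loss for them. Of values not called, 2 for EpiSCs against EpiLCs passed with opposite signs as each EpiSC array was left out. Lamb2 was at 0.50 without EpiSC array 1 and at -0.98 without array 2, and Itga5 at 0.91 and at -0.40. Fitted on the groups compared alone, EpiSCs against EpiLCs gave 4 members and 3403 of all genes in place of 13 and 5909, EpiSCs against 2i ESCs gave 12 members in place of 16, 2i against RFP-negative serum ESCs gave 12 in place of 7, and RFP-positive against RFP-negative serum ESCs gave 0 of all genes in place of 13; fewer arrays then set the error. For MEFs that fit is the reported one and was not run again.

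With single arrays left out, members called ranged from 11 to 16 for EpiLCs against 2i ESCs, 13 to 18 for EpiSCs against 2i ESCs, 7 to 17 for EpiSCs against EpiLCs, 5 to 12 for 2i against RFP-negative serum ESCs, 9 to 13 for single-reporter against double-reporter serum ESCs and 19 to 22 for MEFs, and stayed at 0 for the RFP gates. All genes called for the RFP gates ranged from 1 to 46. Without both EpiSC arrays, 2i against serum gave 12 members and the RFP gates gave 46 of all genes. Leaving 1 array in a group assumes that it varies like the other groups. The weakest calls were Lama4 in EpiSCs against 2i ESCs (lost under 17 alternatives) and Itgae in EpiSCs against EpiLCs (lost under 16). With the replicate number as a block, the counts were 13, 15, 12, 7, 0, 11 and 21 members in the order of EpiLC and EpiSC against 2i, EpiSC against EpiLC, 2i against serum, RFP gates, single-reporter and MEF; the block is no pairing here.

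Scaling to the median in place of quantiles moved the median of all genes to -0.11 in EpiLCs and -0.17 in EpiSCs against 2i ESCs and to -0.22 in MEFs, and the call on Itgb5 in EpiLCs was lost. A detection p-value under 0.01 left 17 members called in MEFs, and no detection filter 23. Signals near the background limit Itga2b, Itga7, Itga9, Itgb3, Lama2, Lama4 and Lamb3.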
